A study of Mus musculus with 5 samples.

Results

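The genes described here are the translation initiation and elongation factors measured on the ribosomes of *Drd2* neurons of the mouse central amygdala (CeA). They are all rows of the deposited table whose name starts with Eif or Eef followed by a digit, except Eif2s3x and Eif2s3y, which gave 64 of 15093 genes. The 64 rows carry 63 names, because Eif2c2 is listed under the identifiers ENSMUSG00000036698 and ENSMUSG00000093631. Of these, 5 rows (Eif2c1 to Eif2c4) carry older symbols of the Argonaute proteins, which work in gene silencing by small RNAs and are not translation factors by role, leaving 59 rows without them. The name rule itself uses no measured value.

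Ribosome-bound RNA was isolated by translating ribosome affinity purification (TRAP), in which a green fluorescent tag on the ribosomal protein Rpl10a is used to pull down the ribosomes of chosen cells together with the messenger RNAs they carry. All mice were adult *Drd2*-TRAP animals, from a cross of a *Drd2*-Cre line with a line whose tagged Rpl10a sits behind a floxed stop at Rosa26, so that any cell with Cre activity in its history carries the tag. In the fear conditioned group, 3 libraries (replicates 2, 3 and 4) came from mice that had received pairings of a tone with a foot shock, and in the control group 2 libraries (replicates 6 and 7) came from mice that the labels call home cage. The study's methods also use HC, the labels' short form of home cage, while its results describe tone exposure without shock, and the labels' treatment note speaks of extinction where their group names speak of conditioning. Each library was a pool of bilateral 1 mm punches from 3 mice taken 2 h after the session, and the mice of a library and the number of independent cohorts were not tied to the replicates further, so that p-values measure the spread between these pools.

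Initiation factors bring the initiator transfer RNA, the small ribosomal subunit and the capped messenger RNA together, and elongation factors then deliver each aminoacyl transfer RNA and move the ribosome along. Initiation is held back in 2 well-known ways, by kinases that phosphorylate eIF2 and so block its recycling by eIF2B, and by small proteins that keep eIF4E, the cap-binding protein, from its scaffold eIF4G. Both controls, and the kinase that slows eEF2, have been studied in neurons for their part in synaptic plasticity and memory. The values here are amounts of each factor's own messenger RNA on tagged ribosomes, not amounts of protein, phosphorylation states or rates of translation.

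Promoter sequences from RefSeq (GRCm38.p6) were at hand for 49 of the 64 genes, each from 250 bases before to 50 bases after the first listed transcription start. The stretches below, from 90 bases before the start to 30 bases after it, belong to the 4 members highest and 2 of the members lowest in the fear conditioned libraries by unadjusted p, and to 3 members whose messenger RNAs belong to the terminal oligopyrimidine (TOP) class, which carry a run of pyrimidines at their first bases and are controlled through mTOR. Each is written 5′ to 3′ on the gene's own strand, in lower case, with the motifs that were searched for in capitals.
Eif2s1, chr12:78861982-78862101, plus strand: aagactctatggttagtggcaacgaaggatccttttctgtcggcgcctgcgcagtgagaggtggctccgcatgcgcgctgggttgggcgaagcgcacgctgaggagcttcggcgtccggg
Eif2ak1, chr5:143817702-143817821, plus strand: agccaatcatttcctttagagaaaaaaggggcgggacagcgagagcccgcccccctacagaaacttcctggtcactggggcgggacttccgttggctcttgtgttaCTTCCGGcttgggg
Eif2b1, chr5:124579102-124579221, minus strand: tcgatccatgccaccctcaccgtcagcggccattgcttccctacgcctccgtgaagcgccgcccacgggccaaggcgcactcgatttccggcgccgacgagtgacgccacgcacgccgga
Eif3b, chr5:140419215-140419334, plus strand: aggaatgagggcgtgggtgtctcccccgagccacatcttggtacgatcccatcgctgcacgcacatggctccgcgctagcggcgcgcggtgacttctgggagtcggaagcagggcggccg
Eif4g3, chr4:137993365-137993484, plus strand: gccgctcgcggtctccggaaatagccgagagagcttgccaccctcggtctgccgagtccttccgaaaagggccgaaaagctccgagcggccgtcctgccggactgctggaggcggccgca
Eif2c1 (Ago1), chr4:126468602-126468721, minus strand: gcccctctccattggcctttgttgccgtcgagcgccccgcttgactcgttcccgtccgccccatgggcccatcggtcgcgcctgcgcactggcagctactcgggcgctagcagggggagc
Eef1a1, chr9:78481695-78481814, minus strand: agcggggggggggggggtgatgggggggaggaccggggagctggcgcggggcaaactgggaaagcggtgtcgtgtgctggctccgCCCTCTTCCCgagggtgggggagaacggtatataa
Eef2, chr10:81176541-81176660, plus strand: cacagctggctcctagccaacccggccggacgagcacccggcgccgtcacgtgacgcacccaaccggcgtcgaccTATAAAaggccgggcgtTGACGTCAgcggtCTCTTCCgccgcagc
Eif3f, chr7:108934325-108934444, plus strand: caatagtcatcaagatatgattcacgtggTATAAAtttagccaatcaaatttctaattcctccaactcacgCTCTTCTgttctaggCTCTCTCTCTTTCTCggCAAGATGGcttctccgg
In these stretches the capitals mark TATAAA (the core promoter box named after it), TGACGTCA (cAMP response element), CCGGAAG or its reverse complement CTTCCGG (core of ETS factor sites), CAAGATGG (YY1), the NRF1 palindrome and a C followed by at least 6 pyrimidines within 25 bases of the start. Motifs were read on both strands, except the pyrimidine run, which was read on the gene's strand, and the searched letters may overlap each other.

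Over the whole windows, the ETS letters were found in 16 of 49 members (32.7%), in 16.7% of the 10984 genes of the table that had a window and in 9.12% of all 27025 windows. Members holding them ranged over the roles, from Eif2ak1 and Eif2b4 to Eif3c, Eif3d, Eif3g, Eif3l and Eif3m of the eIF3 complex. The cAMP response element was found in 1 member (2.04%), Eef2, against 3.21% of the table's genes. The TATA letters were found in 4 members (8.16%), namely Eef2, Eif2s1, Eif3b and Eif3f, against 7.02%. The YY1 letters were found in 3 members (6.12%), Eif3f, Eif4a1 and Eif5a, against 3.04%, and those of NRF1 in Eif3k (2.04%) against 2.01%. A pyrimidine run near the start was found in 13 members (26.5%), against 22.8% of the table's genes, Eef1a1, Eef1a2, Eef2, Eif3f and Eif4b of the TOP class among them. These matches describe letters in the windows of the first listed starts, and which start the CeA neurons used was not measured. A marked pyrimidine run therefore need not be the run at the first bases of a TOP messenger RNA. Counted from the listed start, the run of Eef1a1 began at base -5 and that of Eef2 at base 16.

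Between 19605318 and 27937520 reads per library lay behind the values, which are CPM, counts scaled to 1000000 by the effective size of each library. The members took 0.976 to 1.25% of the reads of a library, with a median of 1339.5 to 2581 reads per member, and 1 member was at 0 in 1 library (Eif4ebp1, home cage replicate 7). Home cage replicate 7 stood apart, with 2681 of the listed genes at 0 against 159 to 976 in the other libraries, and its correlation with home cage replicate 6 across all genes (r = 0.787) was below that among the fear conditioned libraries (r = 0.979 to 0.986). Markers of cell types also moved with the groups. The 8 markers of *Drd2* and striatal neurons summed to 22300 to 24200 CPM in the fear conditioned libraries and to 8220 and 13900 CPM in the home cage libraries, so the labelled cell type was present in all 5. The 8 astrocyte markers summed to 605 to 722 CPM against 1470 and 1060 CPM, the 8 oligodendrocyte markers to 1270 to 2690 CPM against 2780 and 5330 CPM, and the 8 choroid plexus markers to 108 to 183 CPM against 2210 and 1900 CPM, with Folr1 and Kcnj13 at 0 in fear conditioned replicate 2, Aqp1 at 0 in fear conditioned replicates 3 and 4, and Aqp1 and Otx2 at 0 in home cage replicate 7. Sums for other lists were 7090 to 9150 CPM against 6740 and 6510 CPM for 6 general neuronal markers, 43.2 to 194 CPM against 296 and 257 CPM for 5 pallial neuron markers (lowest in fear conditioned replicate 4), 55.5 to 92.4 CPM against 111 and 84.1 CPM for 8 microglial markers, and 10.4 to 39.0 CPM against 55.9 and 217 CPM for 8 endothelial markers (Tek at 0 in both home cage libraries). Markers within some lists moved in different directions. Of the 7 endothelial markers with a mean of at least 1 CPM, Cldn5 was higher without overlap and 2 were lower. Ly6c1 alone held 150 CPM in home cage replicate 7. Of the 8 microglial markers, P2ry12 and Aif1 were higher without overlap and 2 were lower. Of the 7 choroid plexus markers with such a mean, 4 were lower without overlap, and Clic6, Folr1 and Otx2 overlapped. In home cage replicates 6 and 7, Folr1 stood at 11.5 and 0.0527 CPM and Otx2 at 5.14 and 0 CPM. Of the 8 astrocyte markers, 5 were lower without overlap, and Aldh1l1 had a log2 fold change of 0.78. The part of these shifts in the results on translation factors was not tested. In pull-downs from pooled tissue, the number of cells of a type, their RNA per cell and carry-over from untagged cells cannot be told apart.

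The question for each factor was whether its ribosome-bound messenger RNA differed between fear conditioned and home cage mice. Of the 64 members, 63 passed the filter of a mean of at least 1 CPM, the exception being the pseudogene Eif5al3-ps, and none was called in limma at an adjusted p under 0.05 with an absolute log2 fold change over 0.5, as none of 13560 genes was (0%). Over all genes the adjusted p reached no lower than 0.197. Before adjustment, limma placed 4 members higher in the fear conditioned libraries at p under 0.05 (Eif2ak1, Eif2b1, Eif2s1 and Eif3b), which is 6.35% of the members against 9.49% of all genes, and 3 lower (Eif4g3, Eif2c1 and Eif2c2), which is 4.76% against 7.32%, or 11.1% against 16.8% in all. On the recovered reads, the quasi-likelihood test of edgeR called none of 64 members (7 at an unadjusted p under 0.05, 10.9% against 16.6% of all genes) and limma voom none (8, or 12.5% against 17.6%), while DESeq2 called 5 (8 at an unadjusted p under 0.05, 12.5% against 21.7%), 7.81% of the members against 8.94% of all genes. The members called by DESeq2 were Eif2ak1 and Eif2s1, higher (3.12% against 4.53% of all genes), and Eif4g3, Eif2c1 and Eif2c2, lower (4.69% against 4.42%).

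**Figure D1:**
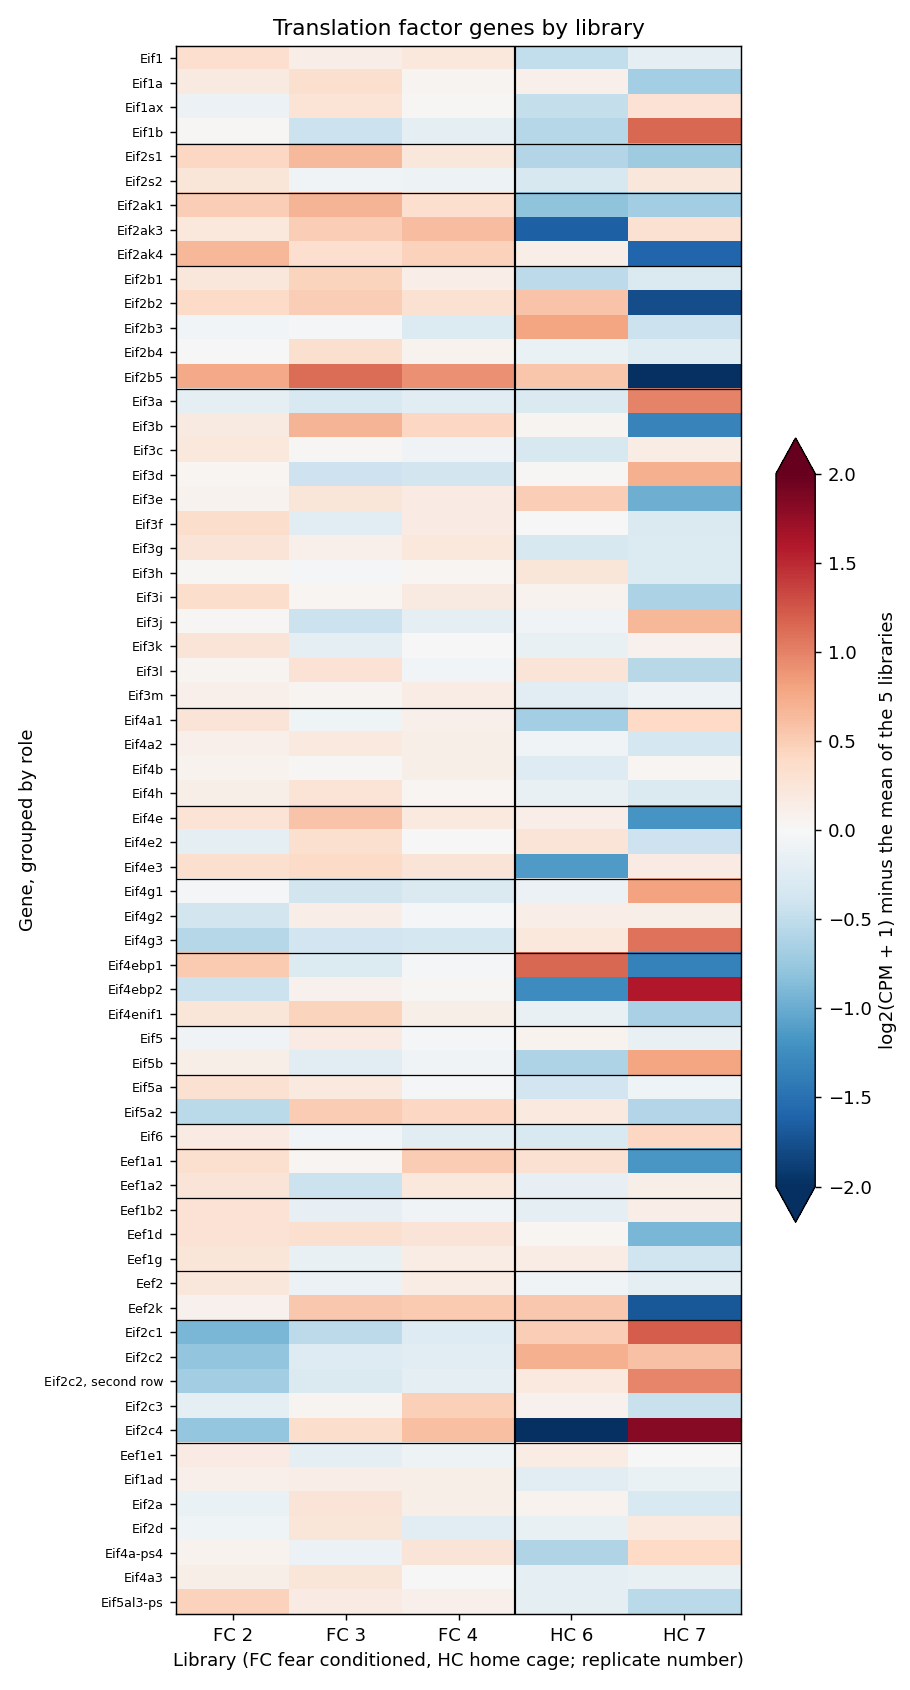
Heat map of the members by library, with a row for each member, ordered by role, and a column for each of the 3 fear conditioned (FC) and 2 home cage (HC) libraries. The colour is log2(CPM + 1) minus the member's mean over the 5 libraries, and the scale stops at 2 units either way. The 3 fear conditioned columns look alike, and the 2 home cage columns differ from each other in many rows.

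The log2 fold changes, fear conditioned minus home cage, ranged from -1.42 to 2.32 with a median of 0.21, against 0.08 for all genes tested. They were above 0 for 47 of 63 members (74.6%), against 54.0% of all genes, and within 0.5 of 0 for 41 members (65.1%), against 44.4%. The 2 groups did not overlap for 19 members that were higher in the fear conditioned libraries (30.2%, against 20.2% of all genes) and for 4 that were lower (6.35%, against 16.1%). Among the fear conditioned libraries the median SD of a member was 0.182 on the log2 scale, against 0.232 for all genes. Between the home cage libraries the median difference was 0.690, against 1.08 for all genes. The members were not matched with all genes for read depth, and its part in these values was not tested.

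Home cage replicate 7 was the lowest of the 5 libraries for 28 members (44.4%, against 43.7% of all genes) and the highest for 15 (23.8%, against 31.9%). Home cage replicate 6 was the lowest for 22 (34.9%, against 22.4%), and fear conditioned replicate 3 the highest for 22 (34.9%, against 17.1%).

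Which home cage library served as the reference decided many of the directions. For 27 of 63 members (42.9%, against 47.1% of 12855 genes) the log2 fold change changed sign between the fits that left out home cage replicate 6 and replicate 7. With either of them left out, it stayed above 0.5 for 3 members (Eif2ak1, Eif2b1 and Eif2s1, 4.76% against 12.2% of all genes) and below -0.5 for 4 (Eif2c1, both Eif2c2 rows and Eif4g3, 6.35% against 10.5%). Without home cage replicate 6 the median log2 fold change of the members was 0.27 and that of all genes 0.19, and without replicate 7 these were 0.19 and -0.04. These fits assume that the lone home cage library left varied like the fear conditioned group, and limma then called 28 members (44.4%, against 60.5% of all genes) in the first case and 10 (15.9%, against 27.5%) in the second.

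The eIF2 step held the members with the smallest p. Eif2s1 (ENSMUSG00000021116) encodes the alpha subunit of eIF2, the subunit that the stress kinases phosphorylate. It stood at 99.5, 118 and 87.3 CPM in fear conditioned replicates 2, 3 and 4 and at 49.3 and 45.4 CPM in home cage replicates 6 and 7, the order in which values of single libraries are given throughout. Every fear conditioned library was above both home cage libraries, which lay close together. The difference was 1.07 on the log2(CPM + 1) scale (SE 0.25; limma, unadjusted p = 0.00471, adjusted p = 0.197), with 1.13 without home cage replicate 6 and 1.02 without replicate 7, and DESeq2 gave 1.07 (adjusted p = 0.00435). Eif2s2, which encodes the beta subunit, stood at 126, 101 and 98.6 CPM and at 84.8 and 124 CPM, and its groups overlapped. The beta subunit thus had a log2 fold change of 0.07, against 1.07 for the alpha subunit. The log2 ratio of Eif2s1 to Eif2s2 within a library averaged -0.10 ± 0.29 (SD, n = 3) in fear conditioned and -1.10 ± 0.47 (SD, n = 2) in home cage libraries, a difference of 1.01 whose exact permutation p of 0.1 was the smallest that the 10 splits allow (adjusted p = 0.275 over 11 pairs).

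Of the eIF2 kinases, Eif2ak1 encodes the heme-regulated kinase HRI. It stood at 92.5, 106 and 83.4 CPM in the fear conditioned and at 37.1 and 40.0 CPM in the home cage libraries. The 2 groups were far apart against their spread, with means of 93.8 ± 11.1 CPM (SD, n = 3) and 38.6 ± 2.07 CPM (SD, n = 2), a ratio of 2.43. Its log2 fold change was 1.26 (SE 0.25; limma, unadjusted p = 0.00205, adjusted p = 0.197), with 1.202 and 1.31 when home cage replicate 6 or 7 was left out, and DESeq2 gave 1.25 (adjusted p = 0.00049). Eif2ak3, the kinase PERK of the endoplasmic reticulum, stood at 11.4, 14.0 and 15.4 CPM against 2.47 and 12.3 CPM. Eif2ak4, the kinase GCN2 that senses uncharged transfer RNA, stood at 12.8, 10.04 and 10.97 CPM against 8.58 and 1.90 CPM, without overlap. Its log2 fold change of 1.21 (limma, adjusted p = 0.408) was 2.07 without home cage replicate 6 and 0.35 without replicate 7. The low value lay in a different home cage library for each of these 2 kinases, and their ratio to each other did not separate the groups (exact permutation p = 1.0). Eif2ak2, the kinase PKR, was not analysed here. Summed over the 3 kinases, the fear conditioned libraries held 117, 130 and 110 CPM and the home cage libraries 48.2 and 54.2 CPM, most of it from Eif2ak1. The log2 ratio of the groups was 1.21 for the sum and 0.41 for the median kinase of each library. That median mixes genes, being Eif2ak4 in fear conditioned replicate 2 and home cage replicate 6 and Eif2ak3 in the other libraries.

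The eIF2B complex exchanges the guanine nucleotide on eIF2. Its alpha subunit, Eif2b1, stood at 60.5, 70.5 and 56.2 CPM against 35.5 and 41.8 CPM, with a log2 fold change of 0.68 (SE 0.27; limma, unadjusted p = 0.0451, adjusted p = 0.290). Its groups did not overlap, and the home cage values lay close together. The catalytic epsilon subunit, Eif2b5, had the largest log2 fold change of the members, 2.32 (SE 1.04; limma, adjusted p = 0.325), but a single library made it. It stood at 145, 184 and 161 CPM against 126 CPM in home cage replicate 6 and 7.44 CPM in replicate 7, and its log2 fold change was 4.28 without replicate 6 and 0.37 without replicate 7. Eif2b2 had the same low value in replicate 7, with 54.9, 59.3 and 51.7 CPM against 62.6 and 11.5 CPM. Eif2b3 stood at 28.1, 28.3 and 23.98 CPM against 51.2 and 21.5 CPM, and its log2 fold change of -0.31 turned to 0.30 without home cage replicate 6. Eif2b4 was higher without overlap, at 49.7, 62.8 and 52.5 CPM against 45.4 and 41.9 CPM.

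**Figure D2:**
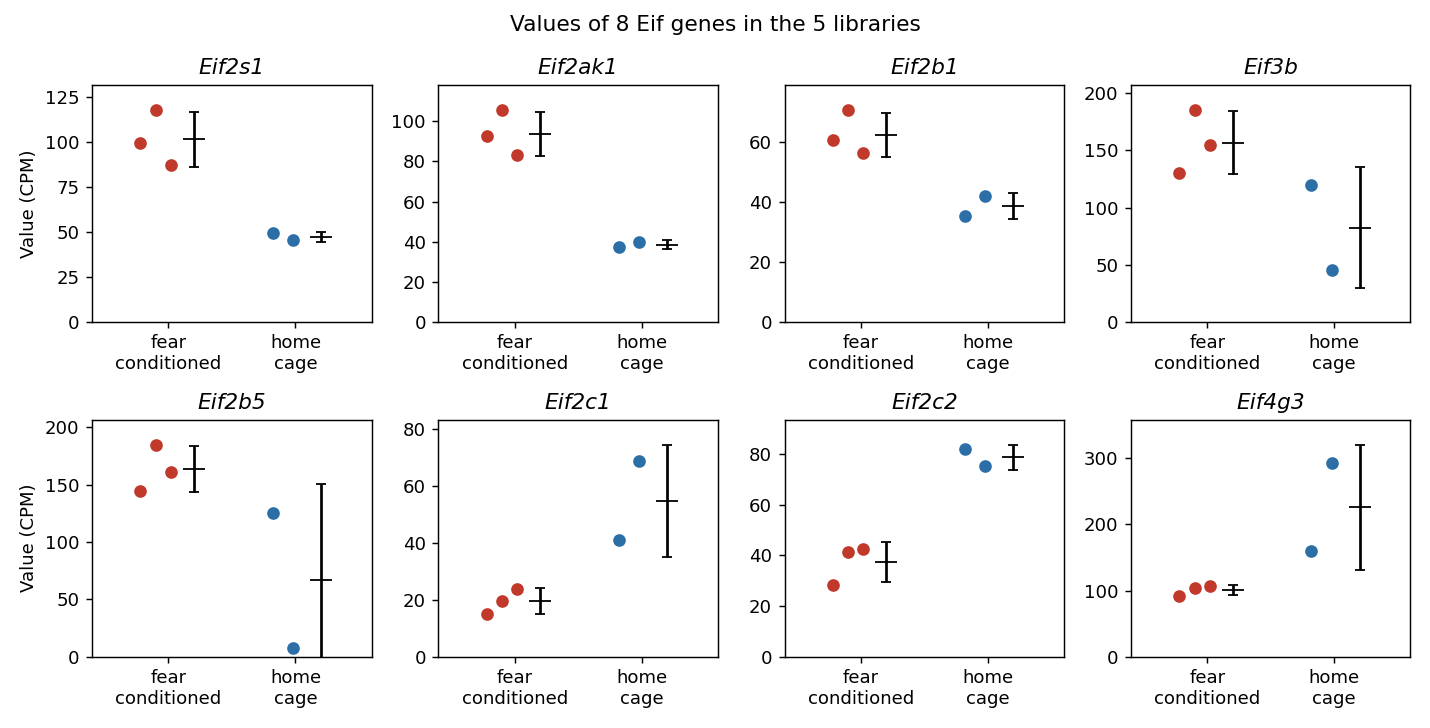
Values of 8 members in CPM (linear axes starting at 0) for the fear conditioned (FC) and home cage (HC) libraries, with a point for each library, and the mean and SD of each group drawn as a line and a bar, cut at 0 where the bar would reach below it. Eif2s1 and Eif2ak1 were higher in all 3 fear conditioned libraries, Eif4g3, Eif2c1 and Eif2c2 were lower, and the home cage values of Eif2b5 were 126 and 7.44 CPM.

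Among the factors that scan for the start codon, Eif1, which guards start codon choice, stood at 1816, 1573 and 1656 CPM against 1021 and 1266 CPM. All fear conditioned values were above the home cage values, and the log2 fold change was 0.56 (SE 0.24; limma, adjusted p = 0.315). Its paralog Eif1b stood at 150, 110 and 130 CPM against 99.0 and 329 CPM, with the highest value in home cage replicate 7. The log2 ratio of Eif1b to Eif1 was -3.69 ± 0.13 (SD, n = 3) in the fear conditioned and -2.65 ± 1.00 (SD, n = 2) in the home cage libraries, where replicate 7 (-1.94) and replicate 6 (-3.35) differed by more than the groups did (exact permutation p = 0.1, adjusted p = 0.275). The difference of the groups, -1.05, was -1.75 without replicate 6 and -0.34 without replicate 7. Eif1ax, which encodes eIF1A and binds next to eIF1, stood at 146, 190 and 161 CPM against 114 and 194 CPM, and Eif1a had a log2 fold change of 0.47. Eif5, the factor that triggers GTP hydrolysis on eIF2, stood at 399, 471 and 412 CPM against 437 and 379 CPM. Eif5b, which joins the large subunit, stood at 146, 115 and 129 CPM against 87.7 and 234 CPM. For both the groups overlapped, with log2 fold changes of 0.07 and -0.15.

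The eIF3 complex holds the small subunit during initiation, and 13 of its subunits were measured. Their summed value was 1828, 1671 and 1722 CPM in the fear conditioned and 1637 and 1513 CPM in the home cage libraries. The sum was thus nearly level between groups, with a log2 ratio of 0.14. Eif3b, a core subunit, stood at 131, 185 and 155 CPM against 120 and 45.2 CPM, with a log2 fold change of 1.06 (SE 0.43; limma, unadjusted p = 0.0469, adjusted p = 0.292) that was 1.76 without home cage replicate 6 and 0.37 without replicate 7. Eif3g, a subunit with an RNA recognition motif, was steadier, at 159, 142 and 153 CPM against 106 and 109 CPM (log2 fold change 0.48, SE 0.20; limma, adjusted p = 0.305). Eif3m was also higher without overlap, at 109, 106 and 113 CPM against 87.6 and 95.0 CPM. Eif3a, the large scaffold subunit, stood at 112, 102 and 109 CPM against 104 and 254 CPM, and Eif3d, which can bind the cap of some messenger RNAs, at 52.8, 37.9 and 39.4 CPM against 52.2 and 84.8 CPM. Both were highest in home cage replicate 7. Of the 13 subunits, 10 had a log2 fold change above 0 and 3 below (above 0 for 54.0% of all genes), and 1 (Eif3b) passed an unadjusted p under 0.05, against 16.8% of all genes.

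In the cap-binding step, Eif4e, the cap-binding protein, stood at 282, 347 and 265 CPM against 255 and 102 CPM, with a log2 fold change of 0.87 (SE 0.40; limma, adjusted p = 0.337) that was 1.53 without home cage replicate 6 and 0.21 without replicate 7. Eif4e2, a cap-binding relative that acts in repression, had a log2 fold change of 0.13. The log2 ratio of Eif4e2 to Eif4e was -2.28 ± 0.14 (SD, n = 3) against -1.54 ± 0.46 (SD, n = 2), a difference of -0.75 (exact permutation p = 0.1, adjusted p = 0.275) that was -1.07 without home cage replicate 6 and -0.42 without replicate 7. The helicase Eif4a2 stood at 800, 856 and 810 CPM against 705 and 583 CPM, and its paralog Eif4a1 at 181, 142 and 161 CPM against 93.4 and 199 CPM. Eif4a2 was higher without overlap and Eif4a1 overlapped, and their log2 ratio was 2.35 ± 0.22 (SD, n = 3) against 2.23 ± 0.96 (SD, n = 2; exact permutation p = 0.8). Eif4h, which stimulates the helicases, stood at 653, 726 and 619 CPM against 540 and 489 CPM.

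Of the 3 eIF4G scaffolds, 1 passed an unadjusted p under 0.05 in limma, lower, against 7.32% of all genes. Eif4g3, one of the scaffolds that bind eIF4E, eIF4A and eIF3, stood at 92.2, 104 and 107 CPM in the fear conditioned and at 159 and 293 CPM in the home cage libraries. All 3 fear conditioned values were below both home cage values. Its log2 fold change was -1.09 (SE 0.31; limma, unadjusted p = 0.0109, adjusted p = 0.214), with -1.53 without home cage replicate 6 and -0.66 without replicate 7, and DESeq2 gave -1.21 (adjusted p = 0.0246). Eif4g1, the scaffold of most cap-dependent initiation, stood at 147, 117 and 123 CPM against 138 and 263 CPM. Eif4g2, a relative that lacks the eIF4E-binding part, stood at 364, 513 and 461 CPM against 515 and 507 CPM. For both the groups overlapped. The log2 ratio of Eif4g3 to Eif4g1 was -0.35 ± 0.28 (SD, n = 3) in the fear conditioned and 0.18 ± 0.04 (SD, n = 2) in the home cage libraries, a difference of -0.52 (exact permutation p = 0.1, adjusted p = 0.275).

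Of the binding proteins that hold eIF4E, Eif4ebp1 and Eif4ebp2 rested on few reads, 0 to 140 and 7 to 150 per library. Eif4ebp1 stood at 2.70, 1.124 and 1.49 CPM against 4.68 and 0 CPM, and Eif4ebp2 at 1.19, 2.12 and 1.99 CPM against 0.234 and 7.91 CPM. For both, the home cage libraries bracketed the fear conditioned ones, so no direction can be read from them, and the sign of each log2 fold change depended on the tool or pseudocount. Eif4enif1, a transporter that carries eIF4E into the nucleus, stood at 41.4, 47.6 and 38.0 CPM against 31.2 and 21.8 CPM, with no overlap.

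Among the factors that act late, Eif5a, which relieves stalled ribosomes and carries the modified residue hypusine, stood at 1073, 989 and 849 CPM against 668 and 815 CPM. All fear conditioned values were above the home cage values, the nearest 2 being 849 and 815 CPM. Its paralog Eif5a2 stood at 34.7, 72.9 and 67.7 CPM against 58.4 and 33.4 CPM. Eif6, which keeps the large subunit from joining too early, stood at 78.9, 67.5 and 59.7 CPM against 56.6 and 93.6 CPM, and both overlapped.

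Elongation factors differed little apart from home cage replicate 7. Eef1a1, which delivers aminoacyl transfer RNA, stood at 1368, 1124 and 1566 CPM against 1346 and 486 CPM, and its log2 fold change of 0.73 (SE 0.45; limma, adjusted p = 0.447) was 1.46 without home cage replicate 6 and -0.01 without replicate 7. Its paralog Eef1a2, the form known to replace it in mature neurons and muscle, stood at 24.99, 15.2 and 24.1 CPM against 18.5 and 22.6 CPM. The log2 ratio of Eef1a2 to Eef1a1 was -5.93 ± 0.20 (SD, n = 3) against -5.24 ± 1.23 (SD, n = 2; exact permutation p = 0.4). Eef1a1 has many processed copies in the genome and its paralogs are close in sequence, so reads may have been split in counting. Of the subunits that exchange the nucleotide on eEF1A, Eef1b2 stood at 294, 215 and 231 CPM against 214 and 265 CPM, Eef1g at 224, 171 and 211 CPM against 211 and 144 CPM, and Eef1d at 65.4, 66.8 and 64.0 CPM against 55.0 and 27.8 CPM. Only Eef1d had no overlap among these 3. Eef2, the factor that moves the ribosome, stood at 839, 662 and 801 CPM against 689 and 632 CPM, and its kinase Eef2k at 9.20, 12.99 and 12.9 CPM against 12.96 and 1.95 CPM.

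Of the members, 10 belong to the TOP class (Eef1a1, Eef1a2, Eef1b2, Eef1d, Eef1g, Eef2, Eif3e, Eif3f, Eif3h and Eif4b). All 10 had a log2 fold change above 0, but Eef1a1, Eef1a2, Eef1b2, Eef1g, Eif3e and Eif3h changed sign between the fits that left out home cage replicate 6 and replicate 7. Their median was 0.21, against 0.24 for the 53 other members. Without home cage replicate 7 these were 0.13 and 0.26, and without replicate 6 the order turned, with 0.33 and 0.24. None passed an unadjusted p under 0.05 in limma, against 16.8% of all genes, and 1 (Eef1d) was higher without overlap, against 20.2% of all genes.

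**Figure D3:**
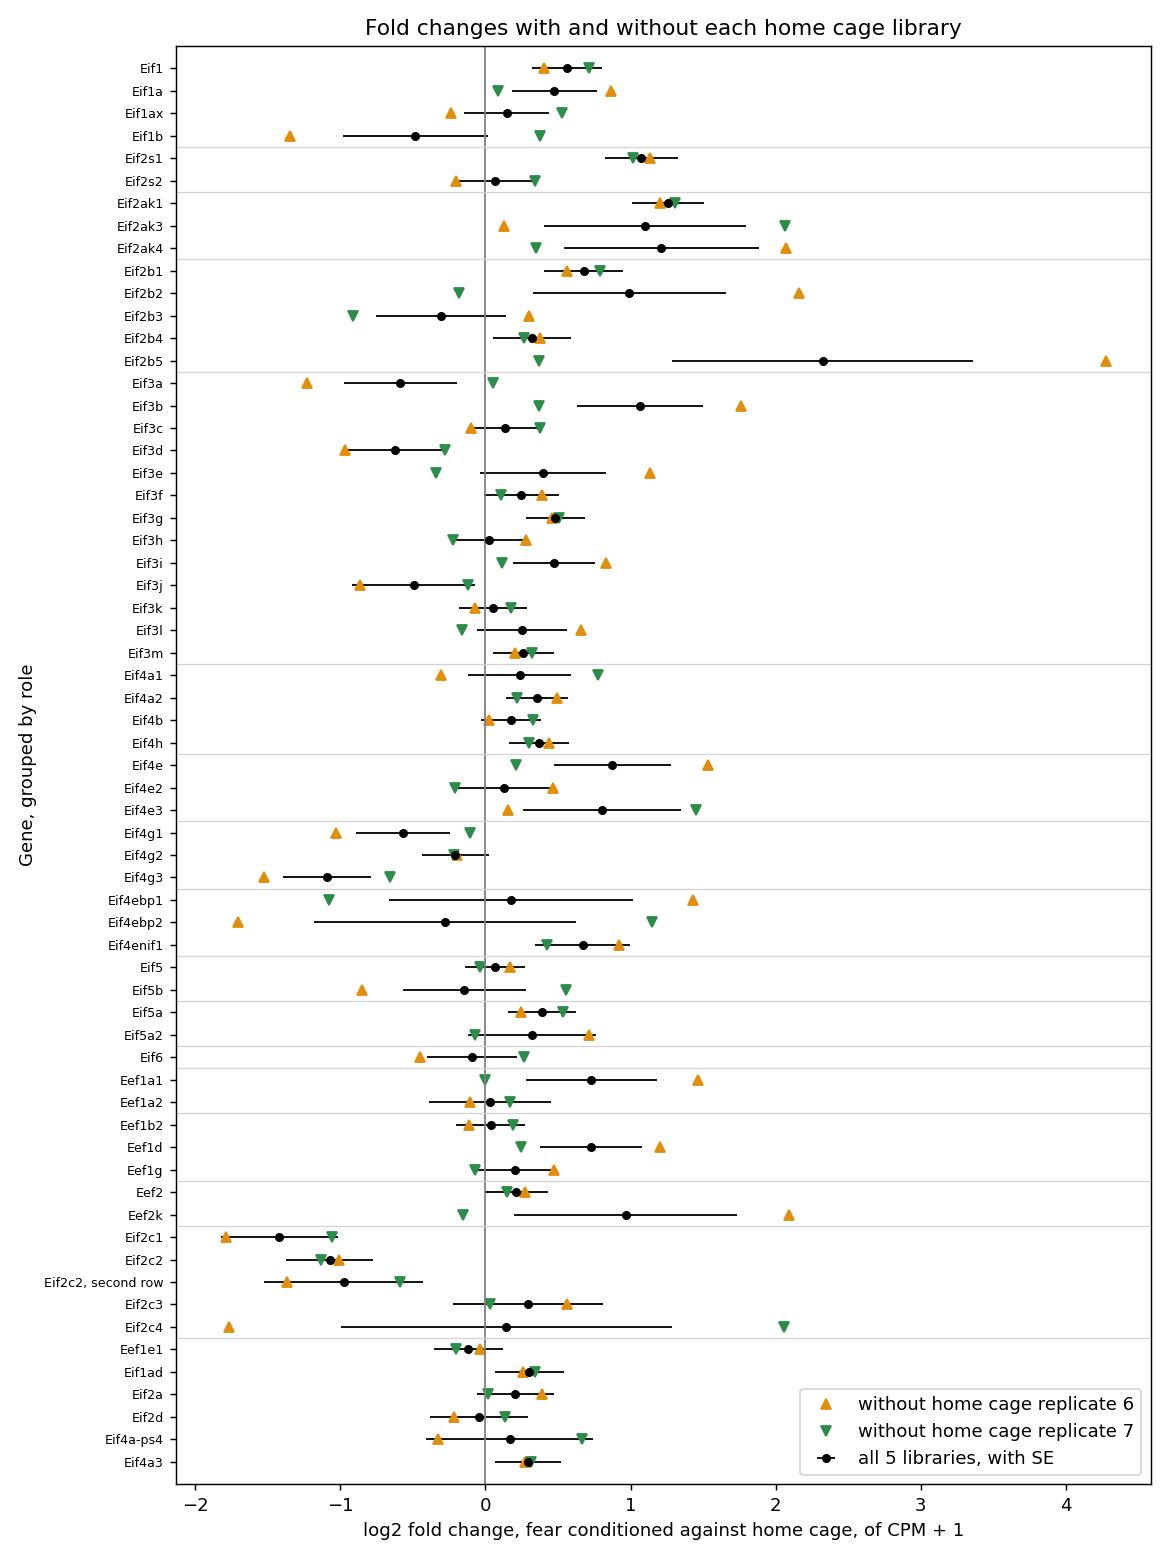
Log2 fold changes of the 63 members that passed the filter (fear conditioned minus home cage, on the log2(CPM + 1) scale) with their SE, grouped by role, and with the values found when home cage replicate 6 or 7 was left out drawn as separate marks. Eif2ak1, Eif2s1 and Eif2b1 keep both marks above 0.5 (4.76% of members, against 12.2% of all genes). Eif4g3, Eif2c1 and both Eif2c2 rows keep both below -0.5 (6.35%, against 10.5%). The marks of Eif2b5 lie at 4.28 and 0.37. For 27 of the 63 members (42.9%, against 47.1%) the marks lie on different sides of 0, and the others keep their sign.

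Of the 5 Argonaute rows under older Eif2c names, 3 were lower in the fear conditioned libraries without overlap, against 16.1% of all genes. They are Eif2c1 and the 2 rows of the single name Eif2c2. Eif2c1 (Ago1) stood at 14.9, 19.7 and 23.9 CPM against 41.0 and 68.7 CPM, with a log2 fold change of -1.42 (SE 0.40; limma, unadjusted p = 0.0116, adjusted p = 0.217), the lowest of all members. Eif2c2 (Ago2), the Argonaute that can cut its target, stood at 28.4, 41.4 and 42.4 CPM against 82.1 and 75.2 CPM under its first identifier, with a log2 fold change of -1.07 (SE 0.30; limma, unadjusted p = 0.0111, adjusted p = 0.216). No fear conditioned library reached a home cage library in either gene, and the fold changes were -1.79 and -1.06 for Eif2c1, and -1.01 and -1.14 for Eif2c2, when home cage replicate 6 or 7 was left out. DESeq2 gave -1.53 for Eif2c1 (adjusted p = 0.0222) and -1.10 for Eif2c2 (adjusted p = 0.0242). The row under ENSMUSG00000093631 stood at 4.93, 6.79 and 7.40 CPM against 9.98 and 17.8 CPM, and how reads were divided between the 2 Eif2c2 rows is uncertain. Eif2c3 and Eif2c4 overlapped, and Eif2c4 stood at 7.73, 18.0 and 21.5 CPM against 2.74 and 51.9 CPM.

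**Figure D4:**
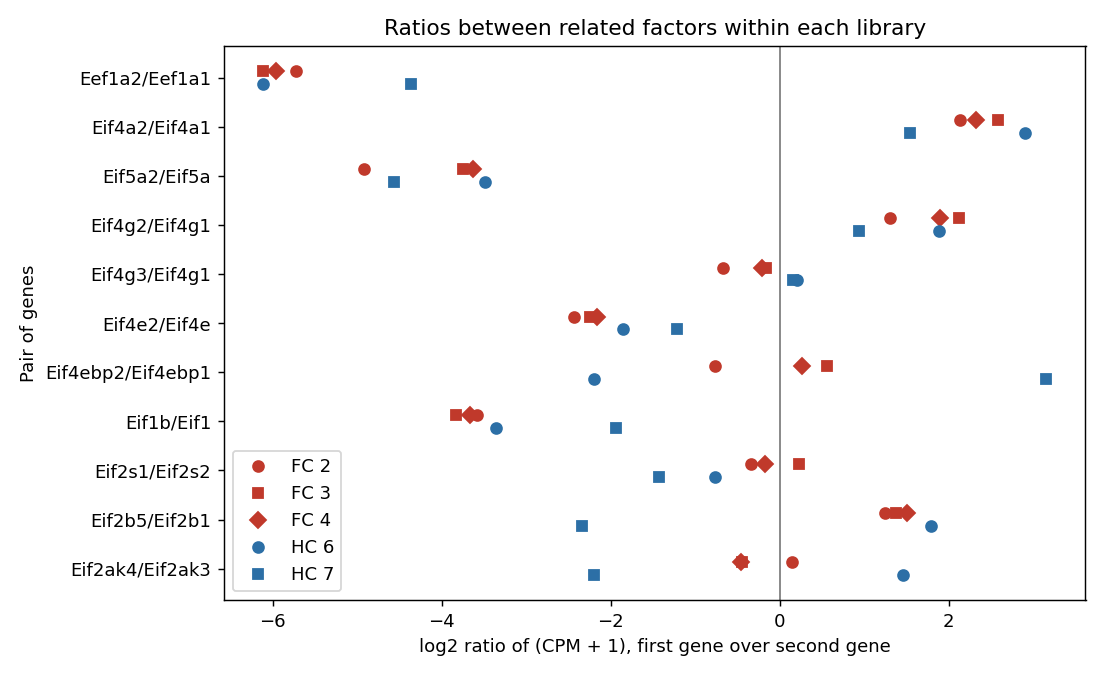
Log2 ratios of 11 pairs of related members within each library, log2((a + 1)/(b + 1)) of the CPM values, with a point for each fear conditioned (FC) and home cage (HC) library. The 4 pairs whose groups do not overlap (exact permutation test, adjusted p = 0.275 each) are Eif2s1/Eif2s2, Eif4g3/Eif4g1, Eif4e2/Eif4e and Eif1b/Eif1. The home cage points lie far apart for Eif2b5/Eif2b1, Eif2ak4/Eif2ak3 and Eif4ebp2/Eif4ebp1.

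Of 11 pairs of related members, the within-library ratio did not overlap between groups in 4, each with an adjusted p of 0.275 (exact permutation test). For single genes, the groups did not overlap for 20.2% of all genes that were higher and 16.1% that were lower. Such a share was not computed for ratios of other genes. In the other 7 pairs the groups overlapped, with exact permutation p from 0.4 to 1.0. Apart from the pseudocount of 1, ratios within a library do not depend on how the library was scaled.

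Levels were compared between genes only per kilobase of the deposited gene length. In the fear conditioned libraries Eif1 was the highest member at 803 ± 59.0 CPM per kilobase (SD, n = 3), followed by Eef1a1 at 564 ± 92.3, Eif5a at 327 ± 38.2, Eef2 at 249 ± 30.3, Eif4a2 at 173 ± 6.32 and Eif4h at 159 ± 13.1. Within these 6, each was separated from the next by more than the SD of either. Eif4h was not so separated from the member after it, Eif3k, at 147 ± 23.5 (SD, n = 3). Per length, Eif4a2 exceeded Eif4a1 by 3.57, 4.86 and 4.05 times in the fear conditioned libraries. The lowest members were Eif4ebp2 at 0.635, Eif2c3 at 0.692, Eif2c4 at 1.39, Eif2ak4 at 1.47 and Eef2k at 1.59 CPM per kilobase.

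Genes outside the name rule that work with these factors gave no call in limma either. Of 11 genes of the integrated stress response, the programme downstream of eIF2 phosphorylation, none passed an unadjusted p under 0.05, against 16.8% of all genes. Atf4, its central transcription factor, stood at 55.0, 38.7 and 54.1 CPM against 53.6 and 72.8 CPM, and overlapped. Ddit3, a target of Atf4, stood at 30.9, 25.3 and 25.7 CPM against 20.5 and 8.54 CPM, and Ppp1r15b, a subunit of the phosphatase that removes the mark from eIF2, at 22.9, 31.2 and 30.4 CPM against 41.8 and 53.5 CPM. Of 15 partners of the cap and the poly(A) tail, 1 passed, lower, against 7.32% of all genes. This was the helicase Ddx3x, at 96.9, 105 and 127 CPM against 188 and 201 CPM (log2 fold change -0.83, SE 0.22; limma, adjusted p = 0.207). Of 12 genes of mTOR and MNK signalling, 1 passed, higher, against 9.49% of all genes. This was the mTOR complex subunit Akt1s1, at 77.2, 68.5 and 67.4 CPM against 41.8 and 38.9 CPM (log2 fold change 0.80, SE 0.25; limma, adjusted p = 0.230). Of 6 termination and recycling factors none passed.

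The enzymes that modify Eif5a with hypusine and Eef2 with diphthamide were the pathway list with the most genes past an unadjusted p under 0.05, 4 of 8, all higher, against 9.49% of all genes. Dohh, which completes hypusine, stood at 168, 130 and 131 CPM against 72.8 and 97.7 CPM (log2 fold change 0.75, SE 0.25; limma, adjusted p = 0.243). The diphthamide enzyme Dph6, listed as Atpbd4, stood at 44.0, 76.8 and 68.1 CPM against 30.2 and 14.6 CPM (log2 fold change 1.5004, SE 0.43; limma, adjusted p = 0.217), with a log2 fold change of 0.999 without home cage replicate 7. Dph3 stood at 41.8, 45.9 and 37.7 CPM against 26.1 and 17.5 CPM, and Dph2 at 16.2, 17.4 and 15.4 CPM against 6.28 and 0 CPM. Over the whole list, 5 of 8 were higher without overlap, against 20.2% of all genes, and 1 was lower, against 16.1%. The 4 given here, picked by their p, were among the 5. The log2 fold change of Dohh was 0.54 without home cage replicate 6 and 0.95 without replicate 7. That of Dph2 was 4.12 without replicate 6 and 1.25 without replicate 7. Dhps, which starts hypusine, stood at 66.7, 69.8 and 61.7 CPM against 74.5 and 73.1 CPM, slightly lower in every fear conditioned library.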

How the data were processed

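Ribosome-bound RNA was measured in 5 libraries, 3 fear conditioned and 2 home cage. The authors deposited a normalized signal per gene and library, in CPM of an effective library size, with a gene length. The submitters' processing notes name DESeq and mm8, and the study's methods name Tuxedo DESeq software. Beyond that, aligner, annotation and strand setting are not given in the sources used here. The table held no other samples. All values (100%) were whole multiples of the value of 1 read within 0.01, and these recovered reads (19605318 to 27937520 per library, floor of 3 reads) served the count tests. Reads are not independent molecules, so such limits cover counting error only. The authors' own unit is not raw counts, so the design's limma test was used.

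Groups were compared with limma 3.58.1 (lmFit, eBayes with trend, R 4.3.3) on log2(value + 1), two-sided, for genes with a mean of at least 1, with Benjamini-Hochberg adjustment over all genes. A fold change on this scale understates the change of low genes. For paralog ratios an exact permutation test (two-sided, 10 splits) was used. Alternatives were edgeR 4.0.16 (quasi-likelihood), DESeq2 1.42.0 and limma voom on recovered reads, quantile normalization, a pseudocount of 0.1, other filters, and each library left out. The code was tested on simulated data. Members were the rows whose name starts with Eif or Eef and a digit. Identifiers of 62 of the 64 rows were found in a table of gene names. Named members were a fixed set of subunits and regulators, the 5 with the smallest p in each direction, those called by any tool and those with 3 reads or fewer in a library. Of the markers of pallial neurons, 1 is not reported here. The choice of this gene family, the lists and the rules was made with earlier results of these data known. Tables and plots were made in Python 3.11.15 (pandas 2.3.3, matplotlib 3.10.9, scipy 1.17.1).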

Additional observations from a re-analysis of the deposited data

How the results depend on the processing

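No paired analysis was possible because the groups share no replicate numbers. The 2 home cage libraries limit every comparison, and with 1 of them left out the lone library is assumed to vary like the fear conditioned group. With DESeq2, 5 members were called in place of 0, and the cause was not tested. The number of members called ranged from 0 to 28 when each library was left out (28 without home cage replicate 6, 44.4% against 60.5% of all genes, and 10 without replicate 7, 15.9% against 27.5%), the number higher at an unadjusted p under 0.05 from 2 to 17 (17 without home cage replicate 6, 27.0% against 38.5% of all genes), and the number lower from 3 to 12 (12 without home cage replicate 6, 19.0% against 26.9%). Another normalization moved the median of all genes from 0.08 to -0.07 (DESeq2) and 0.25 (limma voom).

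Of 17 role groups, the log2 ratio of summed values moved by more than the spread between replicates in 9 when the median member of each library took the place of the sum: 0.30 for the members with other roles, 0.41 for eIF2 kinases, -0.75 for eIF4G scaffolds, 0.31 for eIF3 subunits, 0.25 for the eIF4A group, 0.13 for eIF4E proteins, 0.59 for eEF2 and its kinase, and with the sign turned -0.17 for eIF1 and eIF1A and -1.13 for eIF4E binding proteins. The median member can be a different gene in different libraries. Leaving out each library in turn gave sums from 0.18 to 1.54 for eIF2B, 0.18 to 0.64 for eIF1 and eIF1A, -0.00339 to 1.42 for eEF1A, -0.14 to 0.0855 for eIF5 and eIF5B, 0.18 to 1.22 for eIF4E proteins and -0.46 to 0.27 for eIF6. The log2 ratio difference of pairs ranged from -1.57 to 0.18 for Eef1a2/Eef1a1, -0.56 to 0.80 for Eif4a2/Eif4a1, -0.60 to 0.47 for Eif5a2/Eif5a, -0.11 to 0.83 for Eif4g2/Eif4g1, -3.14 to 2.22 for Eif4ebp2/Eif4ebp1, -0.42 to 3.72 for Eif2b5/Eif2b1 and -1.72 to 1.94 for Eif2ak4/Eif2ak3. The cause of these shifts was not tested. The other 4 pairs kept their direction, and the filters on low values changed no direction or call.

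Log2 fold changes reversed in Eif4ebp1 (-0.39 with DESeq2, -0.35 with edgeR, -0.21 with quantile normalization) and Eif4ebp2 (0.51 with limma voom, 0.15 with a pseudocount of 0.1), whose values rest on few reads. Among the 36 members named by the rule, leaving out each library in turn gave ranges that crossed 0 for Eef1a1 (-0.00618 to 1.46), Eef1a2 (-0.10 to 0.25), Eef1b2 (-0.11 to 0.19), Eef1g (-0.0706 to 0.47), Eef2k (-0.15 to 2.09), Eif1ax (-0.24 to 0.53), Eif2s2 (-0.20 to 0.34), Eif3a (-1.23 to 0.0535), Eif4a1 (-0.31 to 0.78), Eif4ebp1 (-1.07 to 1.43), Eif4ebp2 (-1.71 to 1.15), Eif5 (-0.0368 to 0.17), Eif5a2 (-0.0711 to 0.72), Eif5b (-0.85 to 0.56) and Eif6 (-0.45 to 0.26).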

Other observations

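Mitochondria have translation factors of their own, and 9 of them were measured. Their summed value was level between the groups, from 260 to 296 CPM in the fear conditioned and from 283 to 286 CPM in the home cage libraries. Single factors went both ways. Without overlap, 2 were higher (Tsfm and Mtif3) and 4 lower (Tufm, Gfm2, Mtif2 and Guf1). Among all genes, 20.2% were higher and 16.1% lower without overlap. Tsfm, the exchange factor of the mitochondrial elongation factor Tu, stood at 67.9, 65.8 and 55.6 CPM in the fear conditioned and 32.9 and 15.7 CPM in the home cage libraries (log2 fold change 1.43, SE 0.39; limma, unadjusted p = 0.00942, adjusted p = 0.207), with 1.94 without home cage replicate 6 and 0.91 without replicate 7. Its partner Tufm stood at 38.6, 34.4 and 31.6 CPM against 43.5 and 60.1 CPM, all 3 fear conditioned values below both home cage values. Guf1, a mitochondrial relative of the bacterial factor LepA, stood at 21.8, 19.4 and 23.3 CPM against 54.8 and 33.7 CPM (log2 fold change -0.97, SE 0.37; limma, unadjusted p = 0.0375, adjusted p = 0.273), with -0.63 without home cage replicate 6 and -1.31 without replicate 7. None of the 9 had an adjusted p under 0.05 in limma, and 2 were past an unadjusted p under 0.05, against 16.8% of all genes.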
